A study of Mus musculus and Rattus norvegicus with 32 samples.

Results

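Liver gene expression was compared between male B6C3F1 mice given trichloroethylene (TCE), a chlorinated solvent, for 14 days and mice given only its vehicle, corn oil. The members were chosen by their labels alone and are 8 of the 32 arrays of the series: 4 arrays of TCE-treated liver and 4 of vehicle-treated liver. Treated mice had received 1500 mg/kg TCE in corn oil by oral gavage once daily, control mice had received corn oil by the same route and schedule, and both were 10 weeks old. The liver was sampled 18 h after the final dose. PolyA RNA from liver was labelled with biotin and hybridized to Affymetrix GeneChip arrays, on which a set of short probes (a probe set) reports on 1 transcript. For comparison, 4 arrays of mice given 1 dose of TCE at the same dose level and 4 arrays of their own corn oil controls, all at 8 weeks of age, entered the same statistical fit. The labels do not say that each array came from a separate mouse, so the p-values reflect only how far these samples scatter, part of which may be technical.

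TCE is oxidised in liver, mainly by cytochrome P450 enzymes, to chloral and onwards to trichloroacetate and dichloroacetate. Trichloroacetate and dichloroacetate activate the nuclear receptor PPARα, which in rodent hepatocytes switches on genes of fatty acid oxidation in the endoplasmic reticulum (omega-oxidation), in peroxisomes and in mitochondria, and long exposure to such activators makes peroxisomes multiply. Hepatocytes also secrete most plasma proteins, among them clotting factors, complement and acute phase proteins, and therefore keep a large endoplasmic reticulum (ER) with its folding machinery.

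Each deposited value is an array's signal divided by the median over the 4 oil arrays given the same schedule, so an oil array lies near 1 by construction and a value carries no signal level. The identity of the tissue could therefore not be checked by how strongly hepatocyte genes were expressed, levels of different genes could not be compared, and no probe set could be called absent. Changes below are differences of mean log2 ratio, TCE minus oil, with their standard error (SE) from limma, and a gene is said to have risen or fallen where its Benjamini-Hochberg adjusted p over all 12422 probe sets was below 0.05. The probe set with the smallest spread within groups stands for a gene. A letter r, f or s in its name marks a probe set as less specific. Besides genes so described below, this holds among others for Tbc1d10a, Cyp3a16, Elovl2, Psmd9, Sec62, Junb, Glul, Cryab, Fas, Trpc4 and Cdc25c.

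After 14 days of TCE, 278 probe sets were higher (2.24% of those tested) and 1053 lower (8.48%). All 4 TCE arrays lay above all 4 oil arrays for 571 probe sets (4.6%) and below them for 1538 (12.4%). Of the 8251 genes with a name, 197 rose (2.39%) and 777 fell (9.42%), and their median change was -0.16 (log2). The whole TCE arrays sat low by the same amount: the median log2 ratio was between -0.19 and -0.14 on each TCE array and between -0.01 and 0.01 on each oil array. After each array was centred on its median, which removed a shift of -0.16, 475 probe sets were higher and 506 lower, so that 48.4% of the calls were rises in place of 20.9%. Changes are therefore best read relative to the shift of -0.16, and counts after centring are given beside the main lists below. Of the 8251 named genes 341 were higher and 379 lower after centring. Centred list counts are to be read against these, and uncentred ones against 2.39% higher and 9.42% lower. A count near that share says nothing particular to its list. Quantile normalization, which gives the oil and TCE ratios one width, left 6 rises and 1 fall. Among the 165 named genes with a call, 7 kept it under that normalization (Acot1, Ahnak, Aldh3a2, Cyp4a14, Ehhadh, Tbc1d10a and Vnn1).

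RNA quality moved with the groups in part, and the hybridization controls moved with them fully. The 3' over 5' value of the Gapdh control, a sign of shortened RNA or labelling, was above 1 on the log2 scale on TCE arrays 2, 3 and 4 (1.30 to 1.71) and on oil array 1 (1.46), and between -0.36 and -0.05 on the other 4 arrays (TCE minus oil 0.78, exact two-sided permutation p = 0.371). The same measure of beta-actin differed by 0.72 (exact p = 0.0571), and spiked hybridization controls were lower on every TCE array, by 1.15 on average (a difference of -1.15, exact p = 0.0286, the smallest that 4 against 4 arrays allow). Without the 4 arrays above 1, which leaves 1 TCE array assumed to vary like the other groups, 16 probe sets were higher and 139 lower. With the Gapdh value as a covariate, 300 were higher and 1202 lower, and of the 8251 named genes 204 and 896. Leaving out 1 array at a time gave 687 to 1271 calls in place of 1331, and the 3 lowest counts came without oil 2 (687), TCE 2 (692) and oil 4 (772). The part of RNA quality in the results was not tested beyond these values. A difference in hybridization or scaling between the groups cannot be told apart from treatment here.

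The omega-oxidation genes held the largest change of any named gene. Cyp4a14, an omega-hydroxylase of fatty acids in the ER and a classic PPARα target, had ratios of 42.7, 47.2, 54.2 and 33.3 on TCE arrays 1 to 4, against 4.97, 0.461, 0.576 and 1.42 on oil arrays 1 to 4. All TCE arrays lay above all oil arrays, and oil 1 stood well above the other oil arrays. Cyp4a14 rose by 5.22 ± 0.58, which is 37.3-fold (adjusted p = 0.000406). Its relative Cyp4a10 had ratios of 6.64, 6.76, 11 and 9.98 after TCE against 4.65, 0.288, 0.854 and 1.15 after oil. The groups did not overlap, with oil 1 again the highest control, and Cyp4a10 rose by 2.97 ± 0.60 (adjusted p = 0.00868); its probe set can also bind transcripts of related genes.

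Acot1, a cytosolic thioesterase that frees fatty acids from coenzyme A, had ratios of 4.30, 6.13, 4.5 and 5.62 after TCE against 1.85, 0.858, 0.978 and 1.02 after oil, and rose by 2.18 ± 0.23 (adjusted p = 0.000289). Aldh3a2, which oxidises the fatty aldehydes that omega-hydroxylation leads to, was the tightest of the group, with TCE ratios of 3.36, 3.57, 3.52 and 3.5 and oil ratios of 1.36, 0.965, 1 and 0.999. It rose by 1.70 ± 0.15 (adjusted p = 9.2e-05), and a further probe set of it rose as well. Cyp4v3, another fatty acid hydroxylase, went the other way, with TCE ratios between 0.284 and 0.432 and oil ratios between 0.860 and 1.34. It fell by 1.57 ± 0.23 (adjusted p = 0.00215), and was singled out after its values were seen. Of the 7 genes measured in this list 4 rose and 1 fell, with a median of 1.70 against -0.16 over all named genes, and both counts stayed after centring, with the Gapdh covariate and with any 1 array left out, whereas 3 rose and 0 fell without the arrays of high Gapdh value and also with quantile normalization. The 2 genes without a call were Cyp4a12b at -0.33 ± 0.18 and Cyp4f13 at 0.09 ± 0.24.

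**Figure D1:**
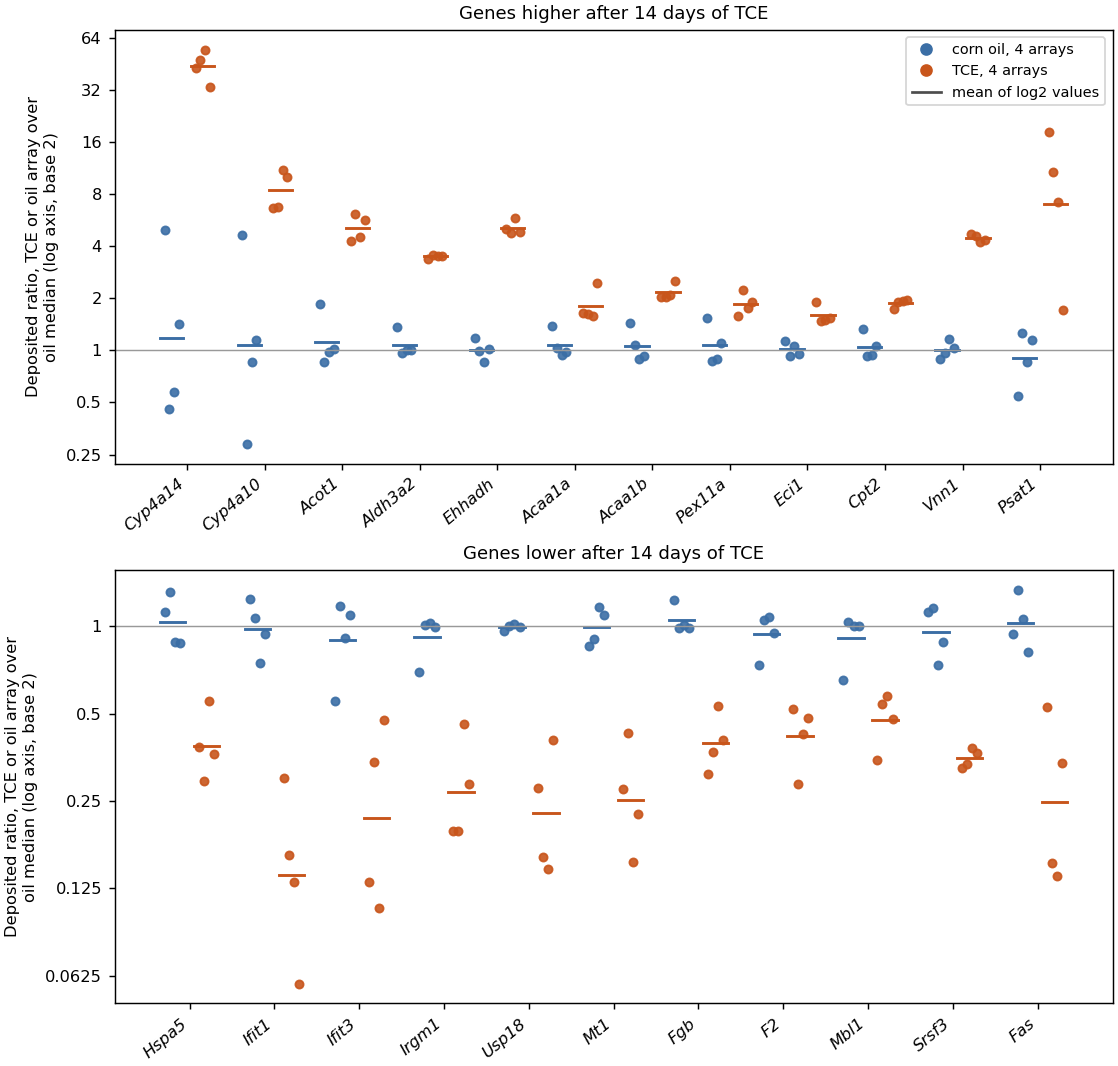
Deposited ratio of each of the 4 oil arrays (blue) and 4 TCE arrays (orange) for 12 genes that rose and 11 that fell, on a log axis of base 2, with short bars at the mean of the log2 values. Cyp4a14 lies between 33.3 and 54.2 on the TCE arrays, and for each gene shown the TCE arrays lie beyond all oil arrays.

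In the peroxisomal list, 6 of 16 measured genes rose and none fell (median 0.38). Ehhadh, the bifunctional enzyme of peroxisomal beta-oxidation, had the smallest adjusted p of the named genes: its ratios were 5.03, 4.78, 5.83 and 4.79 after TCE and 1.17, 0.989, 0.855 and 1.01 after oil. The groups were far apart and each was tight, and Ehhadh rose by 2.35 ± 0.17, or 5.09-fold (adjusted p = 1.53e-05). The other rises were smaller. Acaa1b and Acaa1a, the thiolases of the last step, rose by 1.02 ± 0.16 (adjusted p = 0.00234) and 0.75 ± 0.17 (adjusted p = 0.0176), and every TCE ratio of Acaa1b (2.02 to 2.51) exceeded the highest oil ratio (1.44).

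Pex11a, which takes part in peroxisome division, had ratios of 1.58, 2.24, 1.75 and 1.90 after TCE against 1.53, 0.862, 0.891 and 1.11 after oil, so TCE 1 only just cleared oil 1. It rose by 0.79 ± 0.19 (adjusted p = 0.0201), and its call was lost without oil 2, oil 3 or TCE 2 (highest adjusted p 0.0625). Ech1 and Eci2, which reposition double bonds of unsaturated fatty acids, were the remaining rises at 0.51 ± 0.15 and 0.67 ± 0.18. Both were lost without 6 or more of the 8 arrays (without any but TCE 4 for Ech1, without any but oil 1 and TCE 1 for Eci2, highest adjusted p 0.0992 and 0.0959). The list count became 8 of 16 after centring, 2 without the 4 arrays with a high Gapdh value, and 3 without oil 2, oil 3 or TCE 2 (4 without oil 4 or TCE 3). Of the genes of peroxisome assembly, 0 of 8 passed in limma (1 higher and 1 lower at an unadjusted p below 0.05), with values from -0.49 ± 0.18 for Pex2 (adjusted p = 0.0977) to 0.46 ± 0.19 for Pex6 (adjusted p = 0.13). The motif that PPARα reads is a pair of AGGTCA repeats with 1 base between; in 250 bases before the start, on either strand, 11 of 27025 genes in the RefSeq table (0.0407%) held it in exactly these letters, 0 of 12 peroxisomal and 0 of 4 omega-oxidation genes with an entry, which says only that these letters are not in this window.

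Mitochondrial fatty acid oxidation moved less: 2 of 15 genes rose and 1 fell (median 0.26). Cpt2, which returns fatty acyl groups to coenzyme A inside mitochondria, had TCE ratios of 1.72, 1.89, 1.93 and 1.96 and oil ratios of 1.32, 0.925, 0.937 and 1.06, and rose by 0.83 ± 0.15 (adjusted p = 0.00461; a second probe set gave 0.33 and did not pass). Eci1, the mitochondrial enoyl-CoA isomerase, rose by 0.66 ± 0.15 (adjusted p = 0.0143). Etfa, a subunit of the flavoprotein that takes electrons from acyl-CoA dehydrogenases, fell by 0.73 ± 0.18, but not after centring (adjusted p = 0.0601) or without TCE 2 (adjusted p = 0.0611). After centring 4 genes of this list were higher and 0 lower.

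Genes of fatty acid uptake, lipid droplets and fuel choice had 2 of 23 members higher, and both rises were clear. Vnn1, which encodes the pantetheinase vanin, a further PPARα target, had ratios of 4.67, 4.59, 4.20 and 4.36 after TCE against 0.887, 0.965, 1.16 and 1.03 after oil, and rose by 2.14 ± 0.20 (adjusted p = 0.000154). Mgll, a lipase of monoglycerides, rose by 0.66 ± 0.12 (adjusted p = 0.00593; its second probe set, at 0.31, did not pass). The remaining 21 genes did not pass, and the median of the list was 0.02. The receptor gene itself, Ppara, was at 0.02 ± 0.14 (adjusted p = 0.935), and is named after its values were seen.

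**Figure D2:**
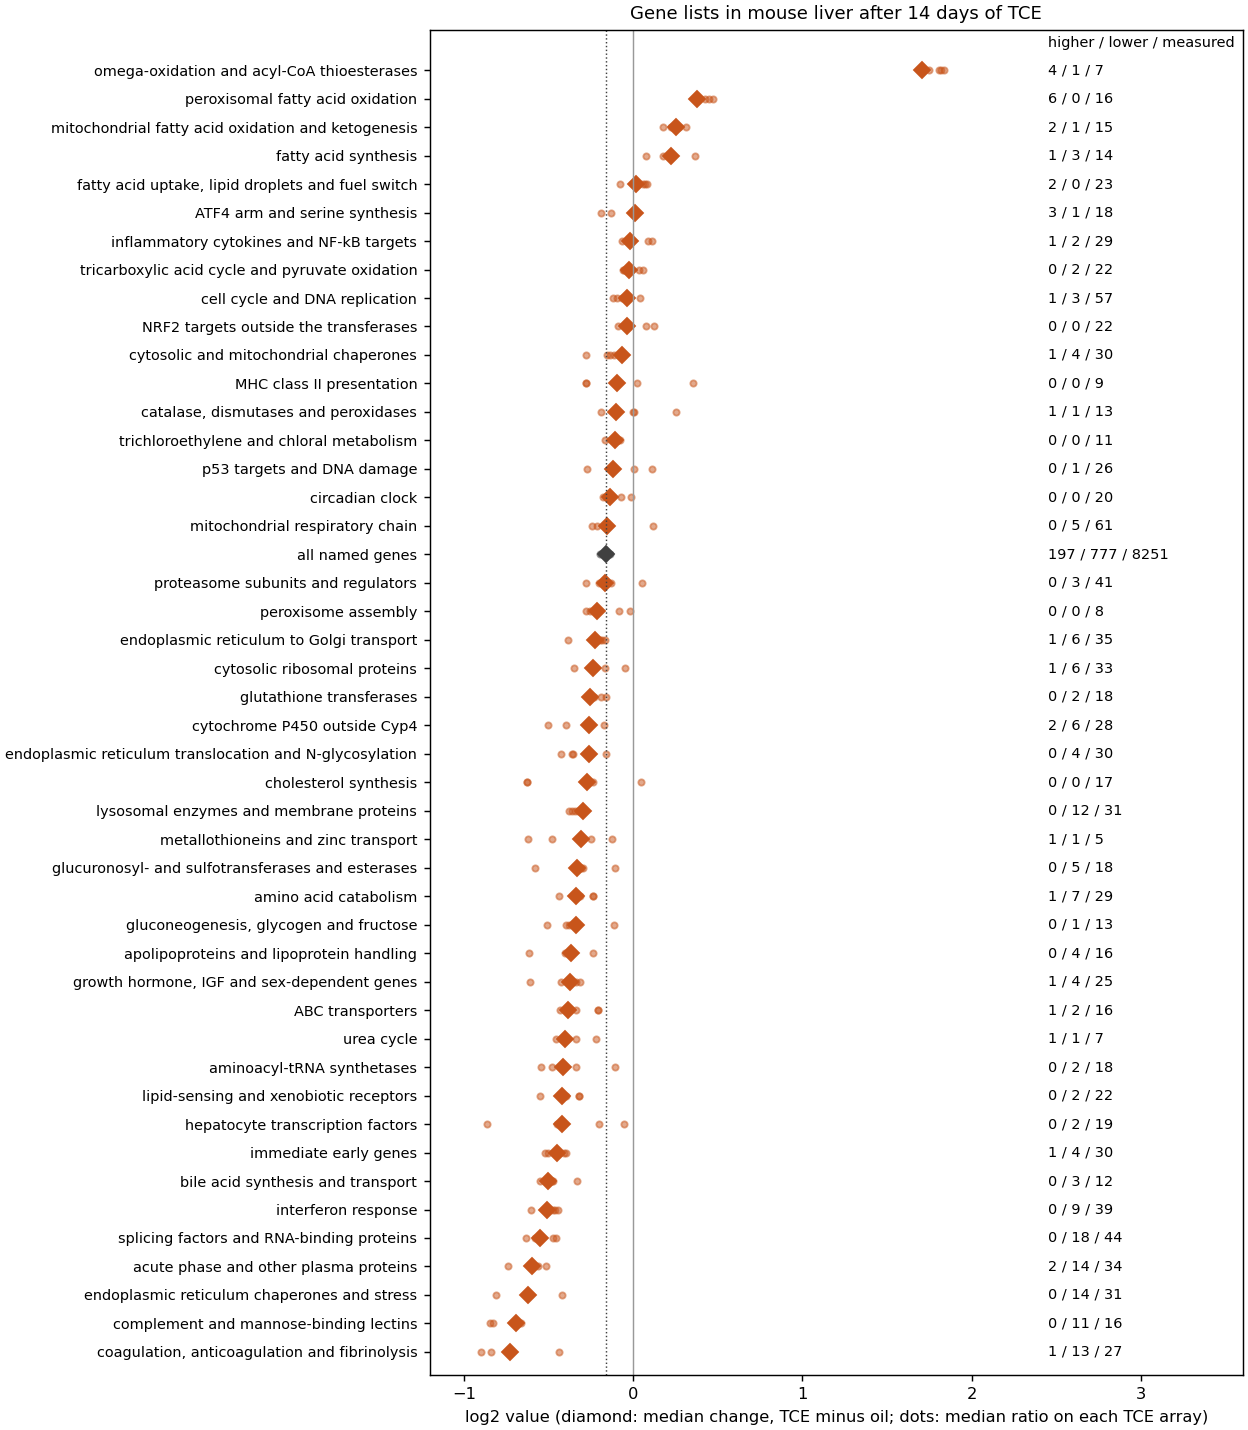
Median change of the measured genes in 45 lists and in all 8251 named genes (diamonds, log2, TCE minus oil), with the median log2 ratio of the same genes on each TCE array (dots) and the counts of higher, lower and measured genes at the right. Omega-oxidation lies at 1.70 and coagulation at -0.73, and the dotted line marks the median of all named genes, -0.16.

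Lipid export and synthesis genes moved in both directions. Of 16 apolipoprotein and lipoprotein genes 4 fell (median -0.36). Apob, the scaffold protein of very-low-density lipoprotein, had TCE ratios of 0.241, 0.303, 0.4 and 0.343 against 1.05, 1.28, 0.935 and 0.948, and fell by 1.72 ± 0.20 (adjusted p = 0.000505). Mttp, which loads lipid onto Apob protein in the ER, fell by 1.5 ± 0.25 (adjusted p = 0.00388). The falls of Apoh and Apom, 0.63 and 0.72, were lost after centring (adjusted p = 0.059 and 0.0597) and without oil 2 or TCE 2, that of Apom also without TCE 4 (highest adjusted p 0.0521 and 0.0618). Only 2 of the 4 falls were left after centring, without oil 2 and without TCE 2.

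Among 14 genes of fatty acid synthesis 1 rose and 3 fell, around a median of 0.22. The elongase gene Elovl2, whose product extends polyunsaturated fatty acids, fell by 0.91 ± 0.19 (adjusted p = 0.0095). Pklr, the liver form of pyruvate kinase, fell by 1.21 ± 0.29 (adjusted p = 0.0194) and a further probe set fell too, but the call was lost without oil 2, oil 4, TCE 2 or TCE 4 (highest adjusted p 0.0611). Elovl6, which extends saturated and monounsaturated fatty acids, rose by 1.05 ± 0.28 (adjusted p = 0.028), a call lost without oil 3, oil 4, TCE 2 or TCE 3 (highest 0.0716). Elovl3 fell by 0.86 ± 0.25 with overlapping groups, and lost its call after centring (adjusted p = 0.0865) and without any array but oil 3 and TCE 1 (highest 0.109). Only 1 gene was lower without oil 2, oil 4, TCE 2 or TCE 4. After centring 4 genes of the list were higher and 2 lower. Of 17 cholesterol synthesis genes 0 passed in limma (1 higher and 4 lower at an unadjusted p below 0.05, and at most 1 after adjustment when an array was left out), with Mvd at 2.06 ± 0.83 and the sterol sensor Insig1 at -1.59 ± 0.68, both with overlapping groups.

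Bile acid synthesis and transport had 3 of 12 genes lower (median -0.50). Cyp7a1, whose enzyme sets the rate of the classic bile acid pathway, had TCE ratios of 0.332, 0.372, 0.291 and 0.275 against 0.919, 0.946, 1.05 and 1.81 after oil; no arrays overlapped, and it fell by 1.85 ± 0.39 (adjusted p = 0.0108). Slc10a1, the uptake carrier for bile salts, fell by 0.58 ± 0.15, with another of its probe sets falling too, and Hsd3b7, an early enzyme of the pathway, by 0.51 ± 0.15. Neither kept its call after centring (adjusted p = 0.0729 and 0.156), which left Cyp7a1 alone in the list. The call of Slc10a1 was also lost without oil 2, oil 4 or TCE 2 (highest adjusted p 0.0695) and that of Hsd3b7 whichever 1 array was left out (highest 0.0962). With the Gapdh covariate 7 of the 12 fell. Without oil 2, oil 4 or TCE 2 the count was 1.

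Genes of plasma proteins held some of the highest shares of falls. Of 27 coagulation and fibrinolysis genes 13 fell and 1 rose, with a median of -0.73, where 9.42% of all named genes fell. Fibrinogen, the protein that clots, is built from several chains. Fgb had TCE ratios of 0.309, 0.370, 0.531 and 0.406 against 1.23, 0.982, 1.01 and 0.988 and fell by 1.40 ± 0.18 (adjusted p = 0.00104). Fga was tight within both groups, with TCE ratios from 0.432 to 0.473 and oil ratios from 0.935 to 1.11, and fell by 1.17 ± 0.16 (adjusted p = 0.00155). The gene of a further chain, Fgg, fell by 0.69. F2, which encodes prothrombin, fell by 1.18 ± 0.21 (adjusted p = 0.00461), with TCE ratios of 0.517, 0.287, 0.424 and 0.482 against 0.736, 1.05, 1.07 and 0.948.

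Ggcx, the vitamin K-dependent carboxylase that activates prothrombin and related factors, fell by 1.37 ± 0.25 (adjusted p = 0.00596), with no overlap between groups. The other falls were those of Kng1, F10, Hgfac, F12, F13b, Klkb1, Proc and Pros1, between 0.59 and 1.13, and the 1 rise was Serpinf2, which encodes the plasmin inhibitor, by 0.62 ± 0.14, on a probe set marked by its name as less specific and not without oil 4 (adjusted p = 0.0509). The falls of Kng1 and F13b were both lost without oil 1, oil 2, oil 4, TCE 1, TCE 2 or TCE 4 (highest 0.115 and 0.0804) and after centring (0.121 and 0.0784). That of Hgfac was lost without oil 4 or TCE 2 (highest 0.0521) and after centring (0.051), and that of F10 after centring (0.0578). After centring 9 genes of the list were lower (median -0.57), with the Gapdh covariate 19, without the 4 arrays of high Gapdh value 2 (median -0.79), and with any 1 array left out 10 to 14. After 1 dose 13 of the 27 genes were lower as well (median -0.52). Over all 8251 named genes, 391 were higher and 377 lower after 1 dose (median -0.08).

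Complement had the highest share of falls among the 60 lists: 11 of 16 genes fell, with a median of -0.69. Hc, which encodes complement C5, had TCE ratios of 0.324, 0.375, 0.512 and 0.452 against 0.938, 1.38, 1.06 and 0.918 and fell by 1.37 ± 0.21 (adjusted p = 0.00261). C2, a protease subunit of the convertases, fell by 1.06 ± 0.18, but its second probe set was at 0.53 and did not pass. C9, the pore-forming component, fell by 1.0 ± 0.20 (adjusted p = 0.00867). The mannose-binding lectin Mbl1 fell by 0.93 ± 0.24, and lost its call after centring (adjusted p = 0.0601) and without oil 2, oil 3, oil 4, TCE 1 or TCE 4 (highest 0.0719). The others, Cfi, Vtn, Serping1, C8g, Masp1, Masp2 and Clu, fell by 0.36 to 0.92, and 4 of them lost their calls after centring (adjusted p = 0.0538 for Vtn, 0.0927 for Masp1, 0.114 for Masp2 and 0.231 for Clu). The same 4 also depended on single arrays: Vtn lost its call without oil 2 or TCE 2 (highest 0.0607), Masp1 without any but oil 3 and TCE 3 (highest 0.0879), Masp2 without any but TCE 1 (highest 0.0964) and Clu without any but oil 1 (highest 0.0908). Cfb, an enzyme of the alternative pathway, did not pass, at 0.39 ± 0.23 (adjusted p = 0.302). It lay higher on every TCE array than on any oil array, and is named after its values were seen. The count of falls was 6 after centring, where 379 of all 8251 named genes were lower. It was 6 without oil 2 and 7 without oil 4, TCE 2 or TCE 4. Without the arrays of high Gapdh value the median of the list was -0.79, which rests on 1 TCE array.

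Of 34 acute phase and other plasma protein genes 14 fell and 2 rose (median -0.60). Itih4, an inter-alpha-trypsin inhibitor heavy chain, had TCE ratios of 0.331, 0.271, 0.337 and 0.403 against 0.803, 1.12, 1.01 and 0.985 and fell by 1.55 ± 0.21 (adjusted p = 0.00111). Lifr, the receptor of leukaemia inhibitory factor, which relays an acute phase signal, fell by 1.35 ± 0.16 (adjusted p = 0.000463); of its 4 other probe sets 1 passed and all were negative. Saa4, a constitutive serum amyloid A, fell by 2.30 ± 0.66 with overlapping groups, since oil 1 was at 0.156, and lost its call after centring (adjusted p = 0.0603) and without oil 2, oil 3, oil 4, TCE 2, TCE 3 or TCE 4 (highest 0.116). Hamp, which encodes the iron hormone hepcidin, and Orm1, a major acute phase glycoprotein, were among the remaining falls at 1.29 ± 0.17 and 1.30 ± 0.26.

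Against that direction, Il1rn, which encodes the interleukin-1 receptor antagonist, rose by 1.43 ± 0.27 (adjusted p = 0.00661), with TCE ratios of 3.42, 2.22, 2.79 and 3.11 against 1.71, 0.739, 1.02 and 0.979. The other rise was that of Lcn2, an iron-binding acute phase protein, by 0.59 ± 0.16, on a less specific probe set and lost without any array but oil 3 and TCE 1 (highest adjusted p 0.0952). Albumin itself, Alb, was at -0.33 ± 0.15 (adjusted p = 0.173). After centring 10 genes of the list were lower, with the Gapdh covariate 17, without the arrays of high Gapdh value 2, and with any 1 array left out 10 to 14. The 13 measured hepatocyte markers, such as Apob, Asgr2 and Tat, were all negative (median -0.40, TCE array medians -0.50 to -0.35), with 3 passing, and 1 (Apob) after centring. Tat and Asgr2 fell by 0.59 and 0.98 with overlapping groups and lost their calls after centring (adjusted p = 0.137 and 0.0876) and without most single arrays (without any but oil 1 and TCE 1 for Tat, without any but oil 1 for Asgr2, highest 0.132 and 0.118). The count of these markers was 1 to 4 when 1 array was left out, and dropped below the full count without oil 2, oil 3, oil 4, TCE 2, TCE 3 or TCE 4. The part of this shift in the plasma protein lists was not tested, and in whole liver fewer cells of a type and less RNA per cell cannot be told apart.

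**Figure D3:**
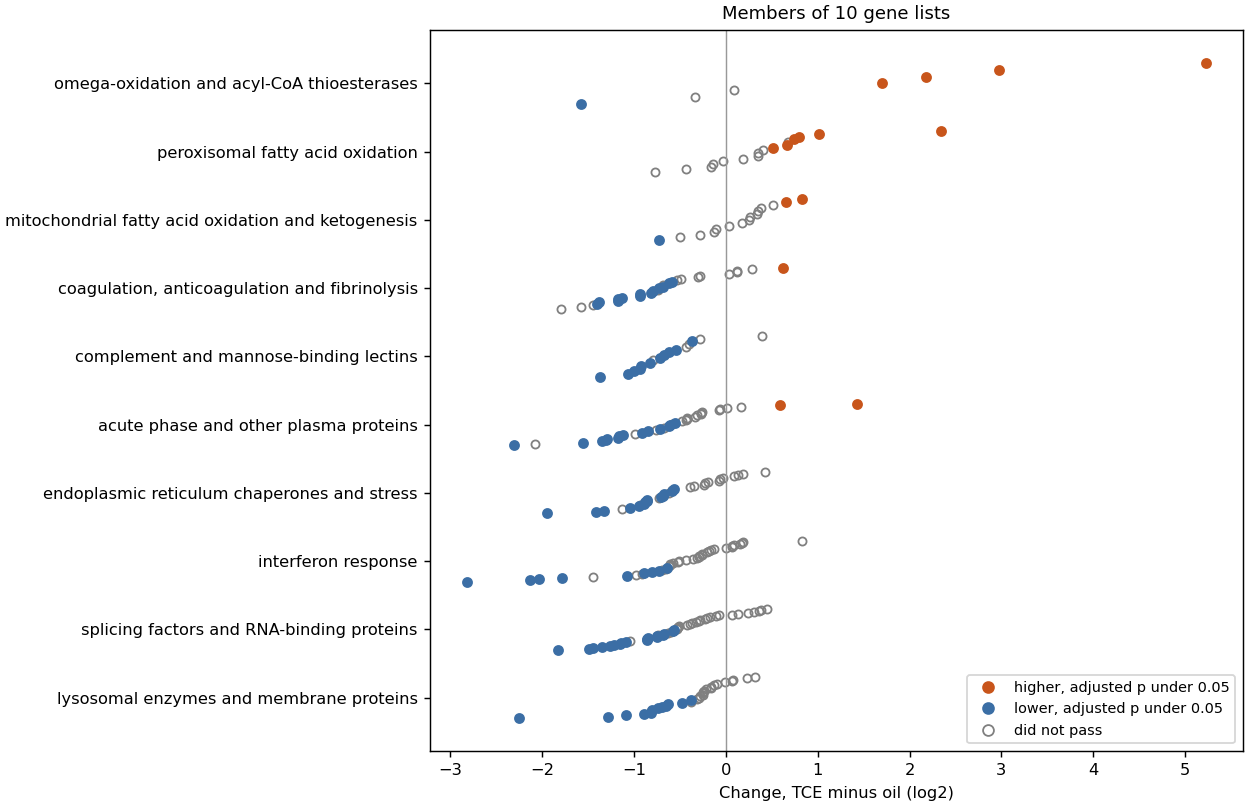
Change of every measured member of 10 lists (log2, TCE minus oil), filled where limma's adjusted p was below 0.05 and open otherwise. The complement list has 11 filled points left of 0 and none right of it, and in the lists of ER chaperones, interferon response, splicing and lysosome every filled point is left of 0.

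Of 31 genes of ER folding and ER stress 14 fell after 14 days, a count that was 8 after centring and 1 without the arrays of high Gapdh value. Many genes of this kind carry an ER stress element, a promoter motif at which the factors ATF6 and XBP1 act, and the stretches below show it for 3 that fell; capitals mark CCAAT and CCACG with 9 bases between, read on either strand. The stretches come from RefSeq promoters of build GRCm38.p6: Hspa5 at chr2:34772000-34772068 on the plus strand, Canx at chr11:50325775-50325843 on the minus strand and Pdia6 at chr12:17266466-17266534 on the plus strand, within 22 to 170 bases before the gene's start.
Hspa5: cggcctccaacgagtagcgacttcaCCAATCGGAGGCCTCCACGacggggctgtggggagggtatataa
Canx: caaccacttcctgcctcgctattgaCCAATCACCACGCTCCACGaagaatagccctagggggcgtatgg
Pdia6: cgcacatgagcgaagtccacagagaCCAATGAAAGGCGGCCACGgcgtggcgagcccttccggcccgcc
In a window of 250 bases before the start, 35 of 27025 genes (0.13%) held the motif, against 8 of the 26 measured ER chaperone and stress genes with a promoter entry (30.8%). Of the 13 of these that fell 4 held it (30.8%): the 3 shown and Hsp90b1. A match describes the letters only, and motif-bearing members such as Calr and Dnajc3, at -0.02 ± 0.80 and 0.09 ± 0.15, did not pass.

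The list's median was -0.62, 0 genes rose and 17 did not pass. Hspa5 encodes BiP, the main chaperone of the ER: its ratios were 0.385, 0.292, 0.553 and 0.363 after TCE against 1.12, 1.31, 0.879 and 0.873 after oil, and it fell by 1.41 ± 0.22, or 2.66-fold (adjusted p = 0.00234). Pdia3, a disulfide isomerase for glycoproteins, had the largest fall, 1.94 ± 0.24 (adjusted p = 0.000744), with TCE ratios of 0.263, 0.216, 0.299 and 0.280 against 1.11, 1.31, 0.799 and 0.888. No TCE array overlapped the oil arrays for either gene. Dnajb11, a co-chaperone of BiP, fell by 1.05 ± 0.20 (adjusted p = 0.00747), Pdia6 by 0.89 ± 0.16, Hsp90b1 by 0.87 ± 0.18 and Canx by 0.57 ± 0.14, the last not after centring (adjusted p = 0.0867) or without oil 2, oil 4, TCE 2 or TCE 4 (highest 0.0713). The isomerase Pdia4 fell by 1.32 ± 0.37 with overlap at TCE 1, and lost its call after centring (adjusted p = 0.0685) and without oil 2, oil 3, oil 4, TCE 2, TCE 3 or TCE 4 (highest 0.104).

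The remaining falls were Edem1, Manf, Erp44, Xbp1, Ppib, Sel1l and Herpud1, between 0.59 and 0.95. Of these Edem1 lost its call without oil 1, oil 2, TCE 1 or TCE 2 (highest adjusted p 0.0872), Manf without oil 3, oil 4, TCE 2 or TCE 4 (highest 0.076) and Xbp1 without oil 1, oil 2, oil 4, TCE 1 or TCE 2 (highest 0.0872). After centring these 3 and Sel1l lost their calls (0.0984, 0.0764, 0.0755 and 0.0504). After 1 dose the median of the same 31 genes was 0.02, with 1 higher and 4 lower. The difference between the schedules, tested directly in limma, was negative at adjusted p below 0.05 for 2 of the 31. The median after 14 days was -0.46 with centring and -0.66 without the arrays of high Gapdh value. The count of falls was 16 with the Gapdh covariate, 9 without TCE 2 and 10 to 14 with any other array left out. Genes of entry into the ER and of N-glycosylation had 4 of 30 lower (median -0.26). Rpn1, a subunit of the oligosaccharyltransferase, fell by 0.76 ± 0.13 (adjusted p = 0.00342) on a probe set that can bind related transcripts, its second one being at -0.58 and not passing. Sec62, of the translocation channel, fell by 0.93 ± 0.20, while neither of its other 2 probe sets passed. Ganab and Sec61a1, at falls of 0.88 and 0.63, had overlapping groups and lost their calls after centring (adjusted p = 0.104 and 0.0966) and without 6 of the 8 arrays each (without any but oil 1 and TCE 1 for Ganab, without any but oil 3 and TCE 3 for Sec61a1, highest 0.131 and 0.0934). The list had 2 falls without oil 2, oil 4, TCE 2 or TCE 4.

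Transport from the ER to the Golgi had 6 of 35 genes lower and 1 higher, the rise being that of Rab6a by 0.75 ± 0.18, lost without oil 2 or TCE 2 (highest adjusted p 0.0593). Sec23a, a coat protein of the vesicles that leave the ER, fell by 0.81 ± 0.18, on both of its probe sets. The golgins Golga5 and Golga4 fell by 0.84 ± 0.15 and 0.86 ± 0.16, and Vti1a, a SNARE of vesicle fusion at the Golgi, by 3.11 ± 0.48, with TCE ratios of 0.148, 0.147, 0.105 and 0.0836 against 0.803 to 1.33 after oil. The ATF4 arm of the stress response had 3 of 18 genes higher and 1 lower. Psat1, an enzyme of serine synthesis, had TCE ratios of 18.3, 10.7, 7.19 and 1.72 against 0.545, 1.25, 0.854 and 1.15, TCE 4 lying close to the oil arrays, and rose by 2.96 ± 0.62 (adjusted p = 0.0104).

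Slc3a2, a chain of amino acid exchangers, rose by 0.82 ± 0.18 (adjusted p = 0.0125). Asns, which makes asparagine, rose by 1.0 ± 0.24 but not without TCE 2 (adjusted p = 0.059), and its second probe set was at 0.05. Atf4 itself, the transcription factor, fell by 0.80 ± 0.21, which centring removed (adjusted p = 0.0664), as did leaving out any array but oil 1 and TCE 1 (highest 0.0795). Ddit3, another stress factor, was at -1.13 ± 0.66 (adjusted p = 0.287) with overlapping groups. Of 18 aminoacyl-tRNA synthetase genes 2 fell, Cars by 0.99 ± 0.29 and Mars1 by 0.44 ± 0.13, and neither after centring (adjusted p = 0.0846 and 0.203). Both calls were lost without oil 1, oil 2, oil 4, TCE 2, TCE 3 or TCE 4, and that of Mars1 also without oil 3 (highest 0.099 and 0.111).

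Of 39 measured interferon response genes 9 fell as well. Promoters of interferon-stimulated genes often hold an interferon-stimulated response element, at which the ISGF3 complex or IRF factors bind, and stretches of 4 genes that fell are shown with it; capitals mark GAAA and GAAA with 2 bases between, read on either strand, so TTTC marks the reverse strand. The RefSeq stretches (GRCm38.p6) lie at chr19:34640760-34640838 on the plus strand, chr19:34583348-34583441 on the plus strand, chr11:48871421-48871475 on the minus strand and chr12:26456538-26456597 on the minus strand.
Ifit1: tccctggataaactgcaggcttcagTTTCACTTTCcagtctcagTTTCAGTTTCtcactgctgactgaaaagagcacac
Ifit3: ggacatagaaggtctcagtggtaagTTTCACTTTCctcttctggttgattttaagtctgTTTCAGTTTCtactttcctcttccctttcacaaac
Irgm1: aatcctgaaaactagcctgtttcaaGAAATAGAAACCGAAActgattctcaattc
Rsad2: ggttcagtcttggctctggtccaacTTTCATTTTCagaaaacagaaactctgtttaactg
Ifit1, Ifit3 and Irgm1 hold 2 matches each, those of Irgm1 overlapping. Of all genes with a promoter 936 of 27025 (3.46%) held the motif, of the measured interferon genes 11 of 31 (35.5%), and of those that fell and had an entry 6 of 8 (75.0%): the 4 shown, B2m and Igtp. These shares describe the letters in 250 bases and nothing about a factor.

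Of the list 0 genes rose and 30 did not pass (median -0.51). Ifit1, an RNA-binding antiviral protein, had TCE ratios of 0.299, 0.163, 0.132 and 0.0588 against 1.24, 1.06, 0.748 and 0.936, and fell by 2.81 ± 0.44, or 7.02-fold (adjusted p = 0.0026). Usp18, a protease that removes ISG15 and damps interferon signals, had TCE ratios of 0.278, 0.161, 0.146 and 0.407 against 0.959, 1, 1.02 and 0.996, and fell by 2.13 ± 0.32 (adjusted p = 0.00234). Its oil arrays were almost equal and all of its TCE arrays lay below them.

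Ifit3 fell by 2.03 ± 0.41 (adjusted p = 0.00867), with TCE ratios of 0.132, 0.341, 0.107 and 0.476 against 0.553, 1.17, 0.907 and 1.09. Irgm1, a GTPase of cell-autonomous defence, fell by 1.78 ± 0.30 (adjusted p = 0.00369), with TCE ratios of 0.197, 0.197, 0.461 and 0.287 against 0.696, 1.01, 1.03 and 0.991. For both genes oil 1 was the lowest control and still above all TCE arrays. Rsad2, the antiviral enzyme viperin, fell by 1.07 ± 0.26, Igtp by 0.89 ± 0.17, Ifi47 by 0.81 ± 0.17, B2m, the light chain of MHC class I, by 0.73 ± 0.21 and Irf9, the DNA-binding part of ISGF3, by 0.64 ± 0.17. Single arrays decided 3 of these calls: that of Rsad2 was lost without oil 2 (adjusted p = 0.062), that of B2m without any but oil 4 and TCE 3 (highest 0.102) and that of Irf9 without oil 2, oil 3, oil 4, TCE 3 or TCE 4 (highest 0.0781). The calls of B2m and Irf9 were also lost after centring (0.1 and 0.0915).

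Other classic members did not pass, among them Isg15 at -0.36 ± 0.18 and Mx1 at -1.45 ± 0.56, both with overlapping groups. The count of falls was 7 after centring (median -0.35), 9 with the Gapdh covariate, 3 without the arrays of high Gapdh value and 6 (without oil 2) to 10 with any 1 array left out. After 1 dose 1 of the 39 genes was lower (median -0.15). The difference between the schedules, tested directly in limma, was negative at adjusted p below 0.05 for 2 of the 39. Macrophage and Kupffer cell markers, 23 measured, moved beside these genes: 21 were negative, the median was -0.55, and the median log2 ratio per array was -0.57 to -0.42 on TCE arrays and -0.36 to 0.12 on oil arrays. Of these markers 3 fell, and their part in the interferon result was not tested. Of 9 MHC class II genes 0 passed in limma (1 higher and 0 lower at an unadjusted p below 0.05), with H2-Aa at -0.94 ± 0.44 and H2-DMb1 at -0.97 ± 0.46.

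Genes for splicing factors and RNA-binding proteins formed another group of falls, 18 of 44, with 0 higher and a median of -0.55. Srsf3, a serine- and arginine-rich splicing factor, had TCE ratios of 0.324, 0.334, 0.381 and 0.367 against 1.12, 1.16, 0.732 and 0.882, with no overlap, and fell by 1.45 ± 0.19 (adjusted p = 0.00106), while a second probe set was at -0.10. Hnrnpl, which binds CA-rich RNA, fell by 1.34 ± 0.23 (adjusted p = 0.00408). Snrpd3, a core protein of spliceosomal particles, fell by 1.49 ± 0.29 although oil 1 (0.553) lay below TCE 1 (0.584), and Srsf10 by 1.83 ± 0.43, a call lost without oil 2 (adjusted p = 0.0541). The other 14 falls, from 0.56 to 1.26, included Hnrnpa1, Hnrnpk, Ddx5 and Ddx17, named after their values were seen; that of Hnrnpa1 was lost after centring (adjusted p = 0.0688) and without oil 2, oil 3, oil 4, TCE 2 or TCE 3 (highest 0.0908). The list had 12 falls after centring, 20 with the covariate and 12 to 19 with any 1 array left out. Its median was -0.57 without the arrays of high Gapdh value, which rests on 1 TCE array. After 1 dose it had 1 fall and a median of -0.03. The difference between the schedules, tested directly in limma, was negative at adjusted p below 0.05 for 1 of the 44.

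Of 31 lysosomal genes 12 fell and 0 rose (median -0.30). Ctsc, a protease that activates granule enzymes, fell by 1.28 ± 0.22 (adjusted p = 0.00395), with TCE ratios of 0.490, 0.473, 0.478 and 0.264 against 0.978, 1.02, 1.16 and 0.884, though its other 2 probe sets did not pass. Ctsz and Lgmn, proteases of the same compartment, fell by 1.09 ± 0.21 and 0.89 ± 0.15, with no overlap. Gla, the alpha-galactosidase, fell by 2.25 ± 0.53 but not without TCE 2 (adjusted p = 0.0533). The count was 6 after centring, 0 without the arrays of high Gapdh value, 6 without oil 2 or TCE 2 and 7 without oil 4. The macrophage markers given above moved beside this list too, and their part in it was not tested.

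In a list of cytochrome P450 genes outside the Cyp4 family, which also holds Cyb5r3, 6 of 28 genes fell and 2 rose. Cyp2b10, the classic target of the receptor CAR, had TCE ratios of 1.97, 1.86, 2.71 and 2.06 against 1.31, 0.963, 1.04 and 0.786, and rose by 1.08 ± 0.21 (adjusted p = 0.00731); the other rise was Cyp2c39, by 0.84 ± 0.19. Cyp3a16 fell by 2.19 ± 0.44 and Cyp2j5, an epoxygenase of arachidonic acid, by 1.59 ± 0.35 (adjusted p = 0.00867 and 0.0128). Cyp2f2, a periportal enzyme that activates aromatic solvents, fell by 0.92 ± 0.16. Cyp2c70, a hydroxylase of bile acids in mice, fell by 0.99 ± 0.28, but not after centring (adjusted p = 0.0725) or without oil 1, oil 2, oil 3, oil 4, TCE 1 or TCE 2 (highest 0.0893). The remaining falls were Cyp3a11, by 0.74 ± 0.19, and Cyb5r3, whose product is a cytochrome b5 reductase and not a P450, by 0.63 ± 0.17. Both lost their calls after centring (adjusted p = 0.0698 and 0.0882), Cyp3a11 also without oil 1, oil 2, TCE 1 or TCE 2 (highest 0.0635) and Cyb5r3 without oil 2, oil 4, TCE 2 or TCE 3 (highest 0.0931). After centring 4 genes of the list were higher and 3 lower, and 3 were lower without oil 2 or TCE 2.

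Genes that handle TCE and chloral themselves had 0 of 11 members past the threshold in limma (1 higher and 3 lower at an unadjusted p below 0.05, and 1 lower with the Gapdh covariate). Cyp2e1, the main oxidase of TCE, had TCE ratios of 0.745, 0.707, 0.8 and 0.840 against 1.26, 1.06, 0.942 and 0.793 and was at -0.37 ± 0.15 (adjusted p = 0.117); it is named after its values were seen. Gstz1, which degrades dichloroacetate, was at -0.42 ± 0.16 (adjusted p = 0.105), with all TCE arrays below all oil arrays, and the epoxide hydrolase Ephx1 at 0.38 ± 0.16 (adjusted p = 0.132). Of 18 glutathione transferase genes 2 fell (11.1%, near the 9.42% of all named genes), and 4 fell without TCE 1. The 2 were Mgst1, by 0.87 ± 0.16, and Gstp1, by 0.73 ± 0.14, both with no overlap. Of 22 further targets of the oxidant sensor NRF2 0 passed in limma (1 higher and 2 lower at an unadjusted p below 0.05, and 1 lower with the covariate), with Tkt at -0.72 ± 0.27 and Cbr3 at 0.46 ± 0.37.

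Gpx1, a peroxide-reducing selenoenzyme, rose by 0.68 ± 0.20, and Cat, the catalase of peroxisomes, fell by 0.61 ± 0.17, the only changes among 13 genes of that list. The rise was lost without oil 1, oil 2, oil 3, TCE 1, TCE 2, TCE 3 or TCE 4 (highest adjusted p 0.0858), and the fall after centring (adjusted p = 0.105) and without oil 1, oil 2, oil 3, TCE 1, TCE 2 or TCE 4 (highest 0.0908). The second Cat probe set was at 0.33. In the list of conjugation enzymes and esterases 5 of 18 genes fell. Nnmt, which methylates nicotinamide, fell by 1.34 ± 0.20 (adjusted p = 0.00234), the carboxylesterase Ces1c by 1.20 ± 0.15 (adjusted p = 0.000665) with TCE ratios of 0.410 to 0.449, and Papss2, which makes the sulfate donor, by 1.05 ± 0.23. Nat2 fell by 0.72 ± 0.22, but not after centring (adjusted p = 0.122) or without any array but oil 3 and TCE 1 (highest 0.12). Ces3a was the last of the falls, lost after centring (adjusted p = 0.0646) and without oil 2 or TCE 2 (highest 0.0555), and 3 falls were left in the list after centring and without oil 2 or TCE 2.

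Among stress genes, the metallothionein Mt1, which binds zinc and copper, had TCE ratios of 0.276, 0.428, 0.154 and 0.225 against 0.851, 0.905, 1.16 and 1.09, and fell by 1.98 ± 0.30 (adjusted p = 0.00234). Of the 5 metallothionein and zinc transport genes, Mt3 was the other one past the threshold, with a rise of 0.73 ± 0.20, a call lost without oil 1, oil 2, oil 4, TCE 1, TCE 2 or TCE 3 (highest adjusted p 0.101). Of 30 immediate early genes 4 fell and 1 rose (median -0.45). Jun, a subunit of the AP-1 factor, had TCE ratios of 0.0841, 0.132, 0.172 and 0.548 against 1.11, 1.20, 0.885 and 0.839, and fell by 2.47 ± 0.46 (adjusted p = 0.00623), and Klf6 by 0.91 ± 0.20. Junb fell by 1.07 ± 0.28 on both probe sets but not after centring (adjusted p = 0.0558), which left 2 falls, or without oil 1, oil 2, TCE 1 or TCE 2 (highest 0.0781). Fosb rose by 0.78 ± 0.20, but not without oil 2, oil 4 or TCE 2 (highest 0.0678). Fas, the death receptor, was the 1 gene of 26 p53 targets to fall, by 2.04 ± 0.38, with TCE ratios of 0.528, 0.153, 0.138 and 0.339 against 0.942, 1.33, 1.06 and 0.816 (2 targets were lower without oil 1 or TCE 4).

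Of 29 inflammatory and NF-kB genes 2 fell and 1 rose. Icam1, an adhesion molecule, fell by 1.27 ± 0.25 (adjusted p = 0.00867), and Il1r1 by 0.92 ± 0.25, which did not pass after centring (adjusted p = 0.0701) or without oil 2, oil 3, oil 4, TCE 1 or TCE 2 (highest 0.0925). The rise, 1.21 ± 0.16 for the receptor gene Tnfrsf1a, came from a probe set marked by its name as less specific, and the second probe set was at -0.39. Cytosolic and mitochondrial chaperones had 4 of 30 genes lower and 1 higher (median -0.07), with Hspa8 lower by 1.15 ± 0.22 and the chaperonin subunit Cct8 by 1.16 ± 0.23. Hsph1 fell by 1.03 ± 0.28, but not after centring (adjusted p = 0.0659) or without oil 2, oil 3, oil 4, TCE 2 or TCE 4 (highest 0.0811). St13, a partner of Hsp70 proteins, was the last of the falls. Cryab rose by 1.13 ± 0.31 with overlapping groups, a call lost without oil 3, oil 4, TCE 1, TCE 2 or TCE 3 (highest 0.0823). Of 41 proteasome genes 3 fell (7.32%, against 9.42% of all named genes). These were Psmd10 by 1.62 ± 0.29, Psmd9 by 0.75 ± 0.16 and Psmb1 by 0.47 ± 0.14, the last not after centring (adjusted p = 0.169) or without any array but TCE 1 and TCE 3 (highest 0.121). Without TCE 1 the count was 5. After 1 dose the same lists had 10 of 30 chaperones and 12 of 41 proteasome genes higher and 0 lower, with medians of 0.46 and 0.38. Over all 8251 named genes 391 were higher and 377 lower after 1 dose (median -0.08). The difference between the schedules, tested directly in limma, was negative at adjusted p below 0.05 for 3 of the chaperones and 1 of the proteasome genes. The cytosolic chaperone gene Hsp90aa1, named after its values were seen, was at 1.99 after 1 dose and 0.12 after 14 days.

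The 12 largest rises and 12 largest falls with no overlap between groups reached beyond these lists. S100g, a calcium-binding protein, had TCE ratios of 17.3, 29.8, 12.2 and 12.3 against 1.07, 3.71, 0.930 and 0.865, and rose by 3.64 ± 0.52 (adjusted p = 0.00193); its second probe set was at 2.27 and did not pass. Grin2b, a subunit of a glutamate receptor of neurons, had TCE ratios of 5.98, 4.08, 4.44 and 4.62 against 0.870, 1.08, 1.26 and 0.924, and rose by 2.21 ± 0.29 (adjusted p = 0.00106). Trgv4, a T cell receptor gamma segment, Trpc4, a cation channel, and Mcpt8, a basophil protease, rose by 2.58 ± 0.56, 2.31 ± 0.48 and 2.15 ± 0.40, the last on 1 of 2 probe sets. Tbc1d10a rose by 2.36 ± 0.25 on a probe set marked by its name as less specific, while its second probe set was at -0.48. Several of these genes are not typical of liver, and ratios without levels cannot show whether their signal lay above background.

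Among the falls, Cmah, which makes the sialic acid N-glycolylneuraminic acid, was at 0.0783, 0.0284, 0.0840 and 0.0800 after TCE, and at 0.0894 on oil 1 against 0.942 to 1.16 on the other oil arrays. Oil 1 was thus close to the treated arrays, and Cmah fell by 3.19 ± 0.71 (adjusted p = 0.0141). Efna4, an ephrin ligand, had TCE ratios of 0.194, 0.108, 0.136 and 0.195 against 1.25, 0.742, 2.23 and 0.749 and fell by 2.86 ± 0.32 (adjusted p = 0.000456). Ahnak, a giant scaffold protein, fell by 2.73 ± 0.34 (adjusted p = 0.000744). Frat1, a regulator of Wnt signalling, Arfgap3, a Golgi GTPase activator, Dlg3, a scaffold protein, Itga5, an integrin chain, and Tacc3, a spindle protein, fell by 2.64 to 2.92. Arhgap29 and Nasp, at falls of 2.89 ± 0.78 and 2.80 ± 0.85, lost their calls without most single arrays (without any but oil 1 and TCE 3 for Arhgap29, without any but TCE 4 for Nasp, highest adjusted p 0.0821 and 0.136), and Nasp also after centring (0.0672). The other 22 of the 24 passed in all 8 fits that each left out 1 array. Of the rises 7 of 12 (Cyp4a14, Cyp4a10, Psat1, Tbc1d10a, Ehhadh, Acot1 and Vnn1), and of the falls 1 of 12 (Cmah), were also past the threshold after 1 dose.

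How the effect of 14 days differed from that of 1 dose was tested directly as the difference between both effects, each against its own oil arrays. The difference was positive for 26 probe sets (0.209%) and negative for 83 (0.668%), and age and schedule cannot be told apart in it. A list count that passed in 1 schedule only does not show such a difference. Among all 8251 genes with a name the difference was positive for 18 and negative for 66. The fatty acid oxidation genes were not among them: Cyp4a14 was at 4.46 after 1 dose and 5.22 after 14 days, Ehhadh at 2.02 and 2.35, Acot1 at 2.38 and 2.18, and Aldh3a2 at 1.58 and 1.70, with adjusted p of the difference from 0.49 to 0.78. Vnn1 was at 1.12 and 2.14 (adjusted p of the difference 0.082).

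Mt1 differed by -3.68 (adjusted p = 0.0032): it rose by 1.71 ± 0.30 after 1 dose and fell by 1.98 after 14 days. Crnkl1, a splicing protein, differed by -3.26 (adjusted p = 0.0005), with a rise of 2.07 after 1 dose and a fall of 1.19 after 14 days. Hspa5 differed by -1.52 (limma adjusted p = 0.0427), from 0.11 to -1.41, and Rpn1 by -0.86 (adjusted p = 0.0443). Sec61a1, of the ER channel, differed by -1.36 (adjusted p = 0.0238), from 0.73 to -0.63. Ifit1 differed by -2.87 (adjusted p = 0.0464) and Usp18 by -2.35 (adjusted p = 0.0415), both near 0 after 1 dose (0.05 and 0.22). Fas differed by -3.21, Srsf3 by -1.37 and Efna4 by -2.57. Xrn1, an RNA exonuclease, and Ccdc47, a membrane protein of the ER, had the largest differences, -4.65 and -4.67. After 14 days Ccdc47 did not pass (adjusted p = 0.0556), with TCE ratios of 0.0878, 0.110 and 0.125 on 3 arrays and 1.46 on TCE 4, and Xrn1 lost its call after centring (adjusted p = 0.0591) and without any array but TCE 2 and TCE 4 (highest 0.0956).

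In the positive direction, Ccr1l1, a chemokine receptor gene, differed by 3.09, Rag1, a recombinase of lymphocytes, by 2.50, Grin2b by 2.46, Sft2d1, a Golgi protein, by 2.18 and Prss30, a serine protease, by 2.00. The second Rag1 probe set was at -1.46 after 14 days and did not pass. Col1a2, a chain of type I collagen, differed by 1.28: its ratios after 14 days were 2.01, 2.69, 2.26 and 2.02 against 0.967 to 1.09 after oil, a rise of 1.14 ± 0.14 (adjusted p = 0.000744), although a second probe set was at -0.81 and did not pass. These calls depended on the arrays: 3 to 35 positive and 27 to 83 negative probe sets passed when 1 array was left out. The fewest together, 30, passed without oil 2, and centring gave 30 positive and 48 negative ones. Of the 10 genes named for the largest differences, 5 lost their calls in each fit without oil 1, oil 2, oil 4 or TCE 2. All 10 lost them with the replicate block and with quantile normalization. The calls of the other genes, such as Hspa5 and Ifit1, were not followed array by array.

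**Figure D4:**
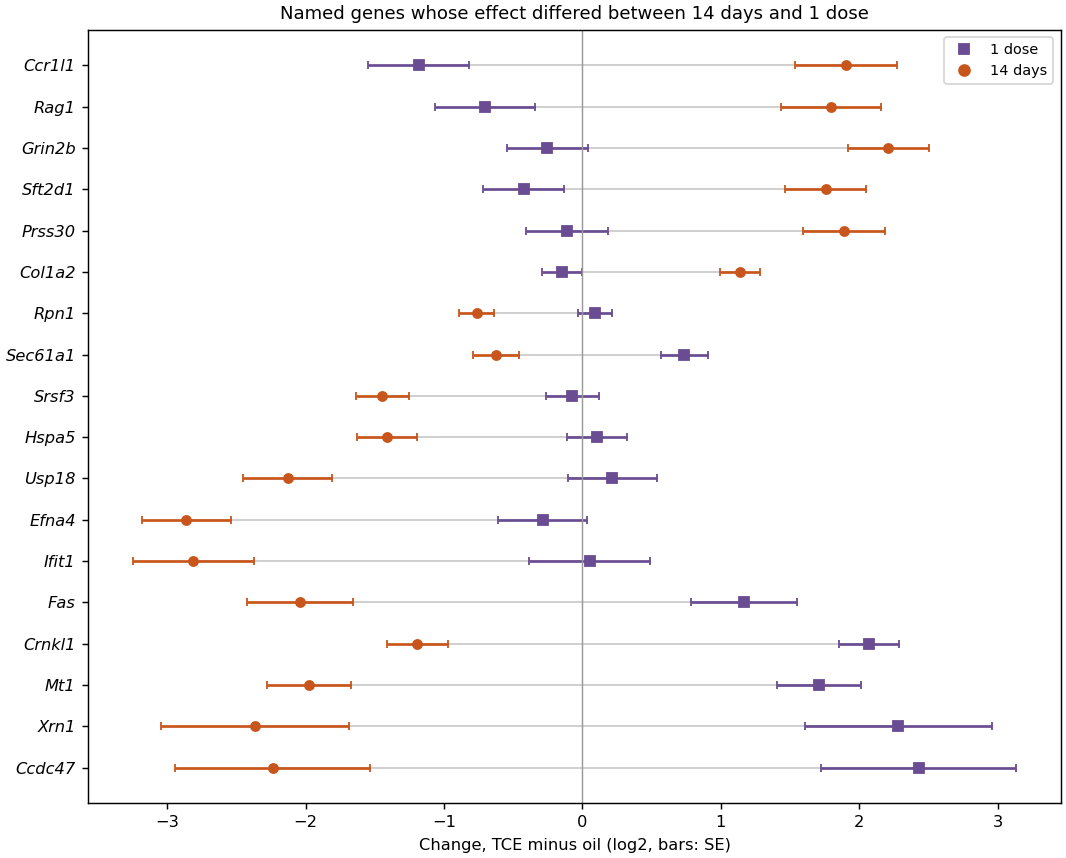
Change with its SE (log2, TCE minus oil) after 1 dose (squares) and after 14 days (circles) for the 18 named genes whose effects differed at adjusted p below 0.05. Mt1 lies at 1.71 after 1 dose and at -1.98 after 14 days, and the negative differences of Efna4, Ifit1, Hspa5, Rpn1, Usp18 and Srsf3 start between -0.29 and 0.22 after 1 dose.

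Macrophage and Kupffer cell markers lay low as a list: 21 of 23 had a negative change, with a median of -0.55 against -0.16 over all named genes. The list's medians per TCE array, from -0.57 to -0.42, all lay below those of the oil arrays, from -0.36 to 0.12. The markers that passed were 3: Mrc1, the mannose receptor, fell by 0.83 ± 0.17 (adjusted p = 0.0107), and Csf1r and C1qa by 0.63 ± 0.15 and 0.99 ± 0.29, the last with overlapping groups. Csf1r lost its call without oil 2, oil 3 or TCE 2 (highest adjusted p 0.0602) and C1qa without any array but oil 1 and TCE 1 (highest 0.121). After centring both were lost (0.0715 and 0.0853) and Mrc1 was the only one left, and counts ran from 1 to 6 with any 1 array left out, the 1 being without TCE 2 or oil 3 and the 6 without oil 1. Of 29 stellate cell and matrix genes 2 rose and 1 fell, namely Col1a2, Loxl1, at 0.77 ± 0.22 with overlap, and Sparc, lower by 0.79 ± 0.23 but not after centring (adjusted p = 0.1). The calls of Loxl1 and Sparc were lost without 6 and 7 arrays (without any but oil 2 and TCE 3 for Loxl1, without any but oil 1 for Sparc, highest 0.12 and 0.115). Of 22 endothelial markers 3 fell. Icam2 fell by 1.67 ± 0.30 (adjusted p = 0.00559), while Tek and Fcgr2b, lower by 1.03 and 0.62, lost their calls after centring (adjusted p = 0.0554 and 0.101), Tek also without oil 2, oil 3, TCE 1 or TCE 2 and Fcgr2b without oil 1, oil 2, oil 4, TCE 2 or TCE 4 (highest 0.0678 and 0.0938). Muc1 was the 1 of 8 cholangiocyte markers that rose, by 1.61 ± 0.39, a call lost without oil 2, oil 4 or TCE 2 (highest adjusted p 0.0582). The cholangiocyte list had a median of 0.48, with list medians from -0.22 to 0.32 on TCE arrays and from -0.33 to 0.11 on oil arrays.

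No marker of T and NK cells (20 measured), B and plasma cells (12), neutrophils (12), exocrine pancreas (13), fat (6) or kidney (11) passed in limma (at an unadjusted p below 0.05 at most 1 in either direction in each list), with at most 1 passing in any of these lists when an array was left out. The members of largest change had overlapping groups or high spread, such as Cd4 at 0.89 ± 0.59, Cd3g at -1.01 ± 0.64, Cr2 at 1.37 ± 0.86, Pax5 at -0.89 ± 0.31, Mmp8 at -0.95 ± 0.33, Ltf at -1.01 ± 0.49, Ucp1 at 1.01 ± 0.53, Fabp4 at -0.34 ± 0.23, Slc12a3 at 1.32 ± 0.66 and Kap at -1.16 ± 0.59. The pancreas genes Ctrb1 and Reg1 were at 1.48 ± 1.20 and 1.23 ± 0.78, with Ctrb1 at 10.9 on TCE 1 alone. The pancreas list had a median of 0.52, and its median per array was 1.86 on TCE 1, -0.49 to -0.16 on the other TCE arrays and -0.05 to 0.11 on oil arrays. Of 9 erythroid markers Alas2, the haem synthesis enzyme of red cells, fell by 0.98 ± 0.20 (2 markers were lower without oil 1), and Car1 was at -0.81 ± 0.66. Of 13 muscle markers Myh4, a myosin, rose by 1.55 ± 0.34 and Mb, myoglobin, fell by 2.42 ± 0.48, while their second probe sets were at -0.17 and 0.67.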

How the data were processed

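The deposited mouse table gives 1 ratio per array and probe set. MAS5 is named in the submitters' processing notes, with its version not given in the sources used here, and how the authors scaled the arrays is not stated. The deposited ratio of a probe set has a median of exactly 1 over the 4 oil arrays of a schedule, which narrows the oil values by construction and cancels in TCE minus oil. Rat arrays are not used here. Of the probe sets, 66 controls were left out and 12422 tested: 10833 have 1 gene symbol in the platform annotation, 396 several and 1193 none, which gives 8251 named genes. The 2 missing values dropped only that array from that probe set's fit.

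Values were taken to log2 from the deposited ratios and fitted with limma 3.58.1 (R 4.3.3) over all 16 mouse arrays in 4 groups, with Benjamini-Hochberg adjustment over all probe sets and a threshold of 0.05. Single values were tested by exact two-sided permutation over 4 against 4 arrays. The number of arrays limits the precision. The scripts were tested on simulated data. Promoters came from a RefSeq table (GRCm38.p6), and figures from Python 3.11.15 with matplotlib 3.10.9, pandas 2.3.3 and numpy 2.4.6.

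Members, the 60 gene lists and the tests were chosen with earlier results of these data known. Genes were named by a rule: the 12 largest rises and 12 largest falls with groups that do not overlap, up to 4 passing members of a list by size (or up to 2 as values where fewer than 2 passed), and the 5 largest differences between schedules each way. Genes known only as predictions were passed over. Most genes named outside the rule are remaining passing members of a list, carriers of a promoter motif or said to be chosen after their values were seen. Cyp4a12b and Cyp4f13 complete their list, and Alb, Mx1 and Ddit3 were named by hand. Alternatives were centring, quantile normalization, log2 of the ratio plus 1, only the 8 arrays, array weights, a replicate block, leaving out the noisiest 40% of probe sets, a Gapdh covariate, leaving out arrays, and averaging all probe sets of a gene.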

Additional observations from a re-analysis of the deposited data

Results flagged for a closer look

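Within groups of 4 arrays, 34 of 388 gene groups (8.76%) had 1 array whose gap to its nearest neighbour, divided by the range, was above Dixon's critical value, where chance gives about 1 in 20. Oil 1 stood apart for 10 genes: Trpc4 (ratio 0.512), Cmah (0.0894), Aldh3a2 (1.36), Fgb (1.23), Mbl1 (0.652), Saa4 (0.156), Irgm1 (0.696), Icam1 (0.596), Apof (0.716) and C1qa (0.452). Oil 2 stood apart for S100g (3.71), Tkt (1.40) and Ivd (1.22), oil 3 for Igf2 (1.72), Hsd3b5 (0.895) and Mrc1 (0.806), and oil 4 for C9 (0.632), Psmd9 (0.780), Cct8 (1.39) and Sec62 (0.834). TCE 1 stood apart for Eci1 (1.91), Egfr (0.346), Ndufa6 (0.819) and Lect2 (0.535), TCE 2 for Cmah (0.0284), Cct8 (0.291), Per2 (0.0472) and Gla (0.113), TCE 3 for Elovl2 (0.734), Icam1 (0.208) and Prom1 (0.733), and TCE 4 for Acaa1a (2.44), Ctsc (0.264) and Ccdc47 (1.46).

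The effect of 14 days differed from that of 1 dose (difference of log2 changes, limma adjusted p below 0.05) for 18 named genes. It was positive for Ccr1l1 (3.09), Rag1 (2.50), Grin2b (2.46), Sft2d1 (2.18), Prss30 (2.00) and Col1a2 (1.28). It was negative for Ccdc47 (-4.67), Xrn1 (-4.65), Mt1 (-3.68), Crnkl1 (-3.26), Fas (-3.21), Ifit1 (-2.87), Efna4 (-2.57), Usp18 (-2.35), Hspa5 (-1.52), Srsf3 (-1.37), Sec61a1 (-1.36) and Rpn1 (-0.86).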

How the results depend on the processing

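With 278 higher, 1053 lower and 1331 probe sets together as the reference, centring gave 475 higher and 506 lower, and quantile normalization 6, 1 and 7. Only the 8 arrays gave 75, 313 and 388, leaving out the arrays of Gapdh value above 1 gave 16, 139 and 155, and leaving out 1 array 132 to 269, 524 to 1002 and 687 to 1271. For the schedule difference (26, 83 and 109), centring gave 30, 48 and 78. Quantile normalization gave 0, 0 and 0 (654 at an unadjusted p below 0.05). Log2 of the ratio plus 1 gave 88, 218 and 306, and array weights 54, 165 and 219. Leaving out the noisiest 40% of probe sets gave 201, 471 and 672, the Gapdh covariate 39, 144 and 183, leaving out the high Gapdh arrays 3, 44 and 47, and leaving out 1 array 3 to 35, 27 to 83 and 30 to 118. The replicate block gave 55, 209 and 264 calls for the TCE effect and 0, 0 and 0 (1936 at an unadjusted p below 0.05) for the difference. Same-numbered TCE and oil arrays did not deviate together (r from -0.17 to -0.0016, and 0 of 4 TCE arrays correlated best with their own number), so the numbers were not used as pairs. With all probe sets of a gene averaged, Oat (0.088), Glul (-0.19) and Cox6c (0.14) changed sign. List medians moved by more than the spread between arrays for 42 of 60 lists with centring and 43 with quantile normalization, and for 2 to 10 without 1 array. The cause of these changes was not tested. Quantile normalization widened the median SD of the oil arrays from 0.367 to 0.520 and narrowed that of the TCE arrays from 0.374 to 0.277. Of the 165 named calls 111 were kept whichever array was left out, 127 after centring, 149 with the Gapdh covariate, 76 with only the 8 arrays, 67 with the replicate block, 30 without the arrays of Gapdh value above 1 and 7 with quantile normalization. The deposited ratios hold no signal level, so signal over background and saturation could not be checked for the genes reported.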

Other observations

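Growth hormone and insulin-like growth factor genes, with others that differ between the sexes in mouse liver, had 4 of 25 members lower and 1 higher (median -0.37). Egfr, the epidermal growth factor receptor, fell by 1.47 ± 0.15 (limma adjusted p = 0.000289), with TCE ratios of 0.346, 0.381, 0.376 and 0.382 against 0.929, 1.20, 1.04 and 0.962, and 1 of its other 2 probe sets fell as well. Ghr, the growth hormone receptor, fell by 0.78 ± 0.16 and Hsd3b5, a male-predominant steroid dehydrogenase, by 1.03 ± 0.24. Igf2, a growth factor of fetal liver, rose by 1.57 ± 0.34 with TCE ratios of 3.73, 5.33, 2.87 and 2.17 against 1.03, 0.971, 1.72 and 0.933, while its second probe set was at 0.35 and did not pass. Igfals, the last of the falls, lost its call after centring (adjusted p = 0.0763), which left 3 falls in the list. Its call was also lost without oil 2, oil 3, oil 4, TCE 2, TCE 3 or TCE 4 (highest adjusted p 0.0758).

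Of 22 genes of the tricarboxylic acid cycle and pyruvate oxidation 2 fell (9.09%, against 9.42% of all named genes). Ogdh and Sdha, subunits of 2-oxoglutarate and succinate dehydrogenase, fell by 0.69 ± 0.13 and 0.90 ± 0.16. Of 61 respiratory chain genes 5 fell (8.2%, against 9.42% of all named genes), and their median was -0.15, against -0.16 over all. The falls were Cycs, the electron carrier cytochrome c, by 0.85 ± 0.16, Uqcrh by 0.72 ± 0.14, Cox6c by 0.66 ± 0.15, Ndufa6 by 0.67 ± 0.16 and Atp5a1 by 0.40 ± 0.12. Ndufa6 lost its call after centring (adjusted p = 0.063) and without TCE 2 (0.0588), and Atp5a1 after centring (0.203) and whichever of the 8 arrays was left out (highest 0.119). Only 3 fell after centring or without TCE 2. Of 13 genes of gluconeogenesis, glycogen and fructose, Slc37a4, the glucose 6-phosphate carrier, fell by 0.76 ± 0.14, and Ppargc1a was at -1.53 ± 0.69 with overlapping groups.

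Of 29 amino acid catabolism genes 7 fell and 1 rose (median -0.34). The rise was that of Got2, the mitochondrial aspartate aminotransferase, by 0.57 ± 0.16 on a probe set marked by its name as less specific, a call lost without any array but TCE 4 (highest adjusted p 0.101). Oat, ornithine aminotransferase, fell by 1.22 ± 0.27 on 1 of 2 probe sets, the other being at 1.40. Ivd, of leucine breakdown, fell by 0.79 ± 0.18 but not without oil 2 or TCE 2 (highest adjusted p 0.0557), and Gnmt, a glycine methyltransferase, by 1.02 ± 0.27 but not after centring (0.0646) or without oil 2, oil 3, oil 4, TCE 2 or TCE 4 (highest 0.0908). Without TCE 2 only 1 gene of the list fell, with any other array left out 2 to 5, and after centring 2. Of 7 urea cycle and glutamine genes Glul, glutamine synthetase of the pericentral hepatocytes, rose by 0.89 ± 0.17 while a second probe set fell by 1.27. Slc25a15, the ornithine carrier, fell by 0.73 ± 0.18, but not after centring (0.0683) or without oil 2, oil 4 or TCE 2 (highest 0.0739).

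Of 19 hepatocyte transcription factors 2 fell: Foxa3 by 2.01 ± 0.35, with TCE ratios of 0.318, 0.147, 0.260 and 0.225 against 0.570, 1.09, 0.906 and 1.26, and Id3 by 0.96 ± 0.21 (4 fell without oil 1 or TCE 4). Of 22 lipid-sensing and xenobiotic receptors and cofactors, Med1, a subunit of the mediator complex, fell by 0.69 ± 0.13, and Crebbp, an acetyltransferase, by 1.13 ± 0.31 but not after centring (0.0672) or without any array but oil 3 and TCE 3 (highest 0.0879). Of 20 clock genes 0 passed in limma (0 higher and 3 lower at an unadjusted p below 0.05), with Per2 at -1.44 ± 0.73 and Bhlhe40 at -0.79 ± 0.28.

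Of 11 periportal genes Ctsc, Cyp2f2 and Apof fell, the last by 0.88 ± 0.20. Of 15 pericentral genes 3 fell and 1 rose: Cyp7a1, Oat and Lect2 fell, Lect2 by 0.69 ± 0.19 but not after centring (0.0978) or in any fit with 1 array left out (highest 0.0905), and Glul rose. Of 33 ribosomal protein genes 6 fell and 1 rose. Rps28 fell by 0.76 ± 0.15, Rps19 by 0.72 ± 0.20 but not after centring (0.0971) or without any array but oil 1 and TCE 1 (highest 0.105), Rpl7 by 0.69 ± 0.16 but not after centring (0.051), and Rpl22 rose by 1.27 ± 0.33 but not without oil 1, oil 3, TCE 1, TCE 2 or TCE 4 (highest 0.0674). After centring 1 fall was left in that list, and 2 to 7 with any 1 array left out.

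Of 57 cell cycle genes 3 fell and 1 rose: Nasp, whose call was lost after centring (adjusted p = 0.0672) and without any array but TCE 4 (highest 0.136), Cks1b, a cyclin-dependent kinase subunit, by 1.10 ± 0.24, and Bub3, of the spindle checkpoint, by 0.65 ± 0.14. Cdc25c, a phosphatase that starts mitosis, rose by 1.82 ± 0.53 with overlapping groups (oil 4 was at 5.35) and lost its call without any array but oil 4 (highest adjusted p 0.124). Among p53 targets Cdkn1a, an inhibitor of the cycle, was at -0.90 ± 0.40. Of 16 genes of the ABC transporter family Abcf2 fell by 2.41 ± 0.37. Abcb10 fell by 0.51 ± 0.14, not after centring (0.118) or without oil 2, oil 4, TCE 1, TCE 2 or TCE 3 (highest 0.0844). Abcf1 rose by 0.68 ± 0.16, not without oil 2 or TCE 2 (highest 0.0587). Abcf1 and Abcf2 belong to the family but are not transporters.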
